A study of Homo sapiens with 6 samples.

Results

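The genes described here are the aryl hydrocarbon receptor AHR, 4 genes of its response (AHRR, CYP1A1, CYP1B1 and TIPARP) and 5 aldehyde dehydrogenases (ALDH1A1, ALDH1A3, ALDH3A1, ALDH3A2 and ALDH2). They were taken from the count table by symbol, and all 10 were found among its 25349 genes. The libraries come from SCC-9, an established human cell line grown out of a squamous carcinoma of the tongue. The study asked which genes depend on the Ki67 isoform that contains exon 7 of MKI67, and compared cells given an siRNA against that exon (siE7, 3 libraries) with cells given a nonspecific siRNA (siNC, 3 libraries). Both groups received 10 nM siRNA by lipid transfection on day 0 and on day 2, and RNA was taken afterwards. Both were grown in medium with serum and hydrocortisone, a glucocorticoid, so that agent is present in every library. The methods list several siRNAs against exon 7 and do not name the one used here, no second siRNA was sequenced, and the groups come from a single cell line. The labels do not say that the 3 libraries of a group came from separate cultures, so the p-values measure the spread between these libraries, which may be technical.

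AHR is a transcription factor that waits in the cytoplasm in a complex with HSP90 and p23. When a ligand binds, such as a dioxin, a polycyclic aromatic hydrocarbon or a tryptophan metabolite of the kynurenine route, AHR moves to the nucleus, pairs with ARNT and binds DNA elements with the core GCGTG. CYP1A1 and CYP1B1, enzymes that oxidize aromatic hydrocarbons, are its classical targets in epithelia, and AHRR and TIPARP are targets that act back on the receptor as inhibitors. Aldehyde dehydrogenases oxidize aldehydes to acids: ALDH1A1 and ALDH1A3 make retinoic acid from retinaldehyde, ALDH2 clears acetaldehyde in mitochondria, ALDH3A2 handles fatty aldehydes, and ALDH3A1 is an AHR target in several tissues. ALDH1A activity is widely used as a marker of stem-like cells in carcinomas, head and neck tumours included.

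RefSeq promoter windows were found for 7 of the 10 genes, and CYP1B1, ALDH3A1 and ALDH2 had none. The 3 windows below are shown because they let the AHR core motif be seen at a classical target, at the repressor of the receptor and at the aldehyde dehydrogenase with the clearest difference between the groups. Each is the 250 bases before a RefSeq start in GRCh38.p14, read 5′ to 3′ on the strand of the gene, and capitals mark GCGTG or its reverse complement CACGC. The CYP1A1 window lies on the minus strand at chr15:74725529-74725778, the AHRR window on the plus strand at chr5:321464-321713 and the ALDH1A3 window on the plus strand at chr15:100879581-100879830, inside the span that GENCODE gives the gene, since some of its transcripts start further upstream.
CYP1A1: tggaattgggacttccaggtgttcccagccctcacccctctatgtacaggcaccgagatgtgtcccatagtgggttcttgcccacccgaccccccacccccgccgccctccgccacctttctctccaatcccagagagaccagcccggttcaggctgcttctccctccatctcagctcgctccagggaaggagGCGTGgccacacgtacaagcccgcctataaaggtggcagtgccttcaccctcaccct
AHRR: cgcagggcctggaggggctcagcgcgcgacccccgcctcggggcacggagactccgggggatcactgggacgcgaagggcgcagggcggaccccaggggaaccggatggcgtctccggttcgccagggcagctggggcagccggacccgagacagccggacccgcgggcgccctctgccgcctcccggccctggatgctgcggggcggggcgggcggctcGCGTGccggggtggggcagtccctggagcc
ALDH1A3: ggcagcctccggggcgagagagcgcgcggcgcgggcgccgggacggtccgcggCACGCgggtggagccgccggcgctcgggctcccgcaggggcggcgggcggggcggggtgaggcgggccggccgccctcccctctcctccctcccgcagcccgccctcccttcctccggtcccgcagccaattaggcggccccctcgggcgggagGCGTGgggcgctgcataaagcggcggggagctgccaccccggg

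The CYP1A1 window held 1 core, 57 bases before the start. The AHRR window also held 1 core, 30 bases before the start, and it was the only one of the 11 windows of these genes to hold the longer form TNGCGTG. The ALDH1A3 window held 2 cores, 197 and 43 bases before the start, on opposite strands. Among the other windows, the first of TIPARP held 2, the second of AHRR held 2 and the second of ALDH3A2 held 1, while the AHR and ALDH1A1 windows held 0. On both strands GCGTG was found in 32.2% of 35116 RefSeq windows of this length and TNGCGTG, which contains it, in 4.52%, so a core in a window is common. A match is a description of the letters, and its absence says nothing about binding.

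MKI67, the targeted gene, was counted with 26473, 25695 and 28445 reads in the siNC libraries and with 3313, 3436 and 3297 reads in the siE7 libraries. It fell by 3.21 on the log2 scale (SE 0.114, adjusted p = 6.71e-08, quasi-likelihood test of edgeR, adjusted by Benjamini-Hochberg over the 14661 genes tested). The libraries held between 25608192 and 29550264 reads on genes. Replicate 1 of siE7 stood apart: its chi-square per degree of freedom was 61.1 and 72.7 against the other siE7 libraries, while other pairs within a group gave 5.54 to 6.22. Values without that library are therefore given for the genes named here whose call or direction it changes, or whose called value it moves by over 1.5 times. All 7 squamous epithelial markers were expressed, with a summed level of 16619 to 17410 CPM in siNC and 17003 to 22493 CPM in siE7. That sum was carried by KRT14 (log2 fold change 0.31, adjusted p = 0.0828, edgeR). Of the 7 markers 5 were called, beside 34.0% of all tested genes (18.0% higher and 16.0% lower). KRT17 was higher (0.70), and KRT5 (-0.60), TP63 (-0.33), EPCAM (-0.77) and CDH1 (-1.03) were lower. Their part in the results below was not tested. Of the other cell types, 3 of 4 leukocyte markers were not in the table and CD68 had at most 3 reads, endothelial markers had at most 8 reads, and the summed level of 5 fibroblast markers was 16.4 to 19.4 CPM in siNC and 18.1 to 24.1 CPM in siE7. Most of that sum was COL1A1 (15.3 ± 1.69 CPM in siNC and 18.4 ± 3.21 in siE7, SD, n = 3). COL1A2 had 49, 61 and 55 reads in siNC and 60, 26 and 59 in siE7 (log2 fold change -0.40, adjusted p = 0.337, edgeR). COL3A1 had 0, 0 and 0 reads in siNC and 3, 0 and 6 in siE7, and LUM had 1 read in siNC replicate 1 and 0 elsewhere. DCN, another fibroblast marker, had 0, 1 and 2 reads in siNC and 8, 11 and 19 in siE7, at most 0.621 CPM. DCN was too low for the filter, but DESeq2 called it (log2 fold change 3.39, adjusted p = 0.0219), as did each of the 6 settings in which it was tested. Its part in the results below was not tested.

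In siE7 cells CYP1B1 rose 4.15-fold, ALDH1A3 fell 2.98-fold and ALDH2 fell modestly, while AHR itself, CYP1A1, TIPARP and the other aldehyde dehydrogenases did not pass the test. CYP1B1 was thus the 1 gene called higher and ALDH1A3 and ALDH2 were the 2 called lower among the 9 that could be tested, where a call is an adjusted p under 0.05. Of all tested genes 34.0% were called, 18.0% higher and 16.0% lower, so 3 calls among 9 genes is near the background. With the study's second condition, a log2 fold change beyond 1, CYP1B1 and ALDH1A3 remained as differentially expressed genes (DEGs), against 12.2% of all tested genes, 7.38% higher and 4.84% lower. These 3 called genes were also those among the 9 whose groups did not overlap, 1 with siE7 above and 2 with siE7 below, which held for 47.6% of all tested genes. The median log2 fold change of the 9 genes was 0.20, beside 0.08 over all tested genes. Levels are read counts scaled to the library size (CPM) after TMM scaling, which corrects each library for its composition, and changes are siE7 against siNC.

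**Figure D1:**
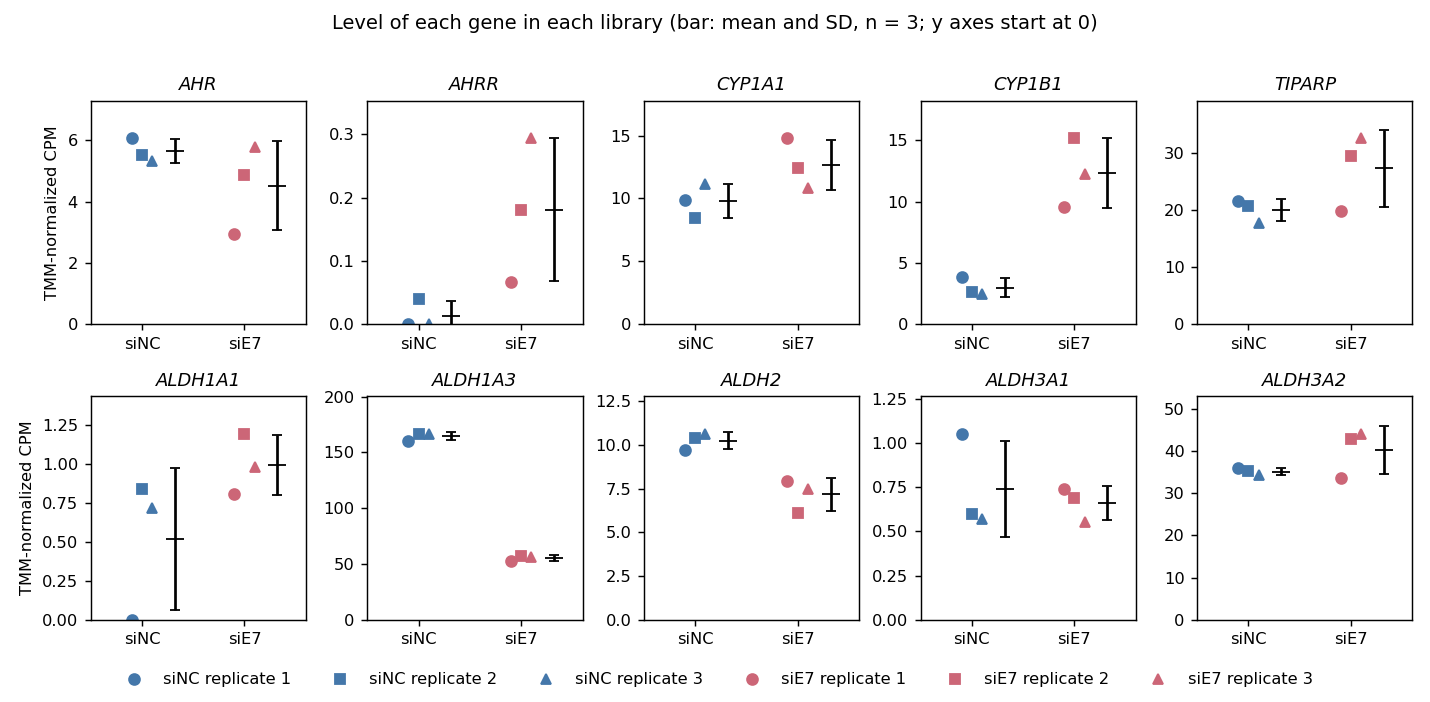
Level of each of the 10 genes in each library, in TMM-normalized CPM (y axes start at 0), for siNC (blue) and siE7 (red), with a marker shape per replicate and a black bar for the mean and SD of 3 libraries. CYP1B1 runs from 2.42 to 3.85 CPM in siNC and from 9.55 to 15.2 in siE7, ALDH1A3 from 160.6 to 166.7 in siNC and from 52.4 to 57.0 in siE7, and for most other genes the groups overlap.

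AHR (ENSG00000106546.14, chr7:16916359-17346152, plus strand, GENCODE v44 on GRCh38) was counted with 150, 138 and 141 reads in siNC and with 87, 134 and 177 reads in siE7. The groups overlapped, and replicate 1 of siE7 was the lowest of the 6 libraries. The mean level was 5.65 ± 0.383 CPM in siNC and 4.53 ± 1.45 in siE7 (SD, n = 3), a log2 fold change of -0.32 (SE 0.243, 95% interval -0.85 to 0.21, adjusted p = 0.335, edgeR). The interval still allows a fall of 0.85, so the receptor mRNA is not shown to be unchanged. Without replicate 1 of siE7 the log2 fold change was -0.14 (adjusted p = 0.495). On the other strand the lncRNA ENSG00000237773 overlaps exons of AHR, with 43, 31 and 36 reads in siNC and 18, 38 and 41 in siE7. Its log2 fold change was -0.39 (adjusted p = 0.434, edgeR), and whether counting used the strand is not stated. In bulk RNA a lower level in every cell and a smaller number of expressing cells cannot be told apart, here and for the genes that follow.

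AHRR (ENSG00000063438.20, chr5:321714-438291, plus strand), the repressor that competes with AHR for ARNT, was close to absent. It had 0, 1 and 0 reads in siNC and 2, 5 and 9 reads in siE7, and every siE7 library lay above every siNC library. These counts were too low for the filter, so the gene was not tested. Over the groups, 16 reads stood against 1, a ratio of 13.9 after scaling, with a 95% interval of 2.15 to 581 that covers counting error only. A library floor of 3 reads corresponds to between 0.0981 and 0.122 CPM, so 4 of the 6 libraries sat at or under it. When every gene was tested without a filter, the log2 fold change was 3.38 with an adjusted p = 0.0823 in edgeR, and DESeq2 gave 3.61 with an adjusted p = 0.125. AHRR shares exons with the read-through gene PDCD6-AHRR, which had 60, 63 and 68 reads in siNC and 119, 76 and 81 in siE7 (log2 fold change 0.32, adjusted p = 0.319, edgeR), so reads on shared exons may have gone to either gene. The sum of both gave a log2 fold change of 0.40 (adjusted p = 0.201, edgeR).

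CYP1B1 (ENSG00000138061.12, chr2:38066973-38109902, minus strand), a cytochrome P450 that oxidizes polycyclic hydrocarbons, estrogens and retinoids, was counted with 95, 66 and 64 reads in siNC and with 283, 419 and 375 reads in siE7. The lowest siE7 library, replicate 1, still held well above the highest siNC library. The mean rose from 2.97 ± 0.767 to 12.3 ± 2.82 CPM, a log2 fold change of 2.05 (SE 0.238, 95% interval 1.53 to 2.57, adjusted p = 0.0001, edgeR). The 15 alternative ways of processing gave log2 fold changes of 1.88 to 2.28, and the call was kept in each. On the other strand CYP1B1 overlaps exons of CYP1B1-AS1, with 1, 1 and 2 reads in siNC and 12, 2 and 4 in siE7, and of RMDN2, with 4 to 20 reads in siNC and 4 to 25 in siE7. The use of strand in counting is not stated. Both overlapping genes carry few reads beside CYP1B1 in siE7. In siNC RMDN2 had 13, 4 and 20 reads against 95, 66 and 64 for CYP1B1, a larger part.

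CYP1A1 (ENSG00000140465.14, chr15:74719542-74725536, minus strand), the target most often used to read AHR activity, had 243, 211 and 295 reads in siNC and 439, 343 and 331 in siE7. On the CPM scale the groups overlapped, with siNC at 9.84, 8.45 and 11.2 and siE7 at 14.8, 12.4 and 10.8. The log2 fold change was 0.37 (SE 0.177, 95% interval -0.02 to 0.76, adjusted p = 0.130, edgeR), and 0.18 without replicate 1 of siE7 (adjusted p = 0.251). Per length CYP1A1 was the more abundant of the pair in both groups, and the reads of CYP1B1 per CYP1A1 read were 0.391, 0.313 and 0.217 in siNC and 0.645, 1.22 and 1.13 in siE7. That ratio did not overlap between the groups, and it was chosen after the values had been seen. The difference between the changes of CYP1B1 and CYP1A1 was not tested.

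TIPARP (ENSG00000163659.13, chr3:156673235-156706770, plus strand), an ADP-ribosyltransferase that AHR induces and that limits AHR activity, had 531, 517 and 469 reads in siNC and 585, 813 and 995 in siE7. In CPM, siE7 replicate 1 (19.7) lay inside the siNC range of 17.8 to 21.5, while replicates 2 and 3 (29.5 and 32.5) lay above it. The log2 fold change was 0.45 (SE 0.183, 95% interval 0.05 to 0.85, adjusted p = 0.0803, edgeR) and did not pass the threshold. Without replicate 1 of siE7 it was 0.57 (adjusted p = 2.3e-06), in a comparison in which 58.4% of all tested genes were called. Replicate 1 of siE7 was low relative to the mean of the other siE7 libraries also for AHR, at 0.552 of it, for TIPARP, at 0.637, and for CYP1B1, at 0.696, but not for CYP1A1, at 1.27. TIPARP reads per AHR read were 3.54, 3.75 and 3.33 in siNC and 6.72, 6.07 and 5.62 in siE7, a ratio also chosen after its values were seen, in which replicate 1 no longer stood apart.

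**Figure D2:**
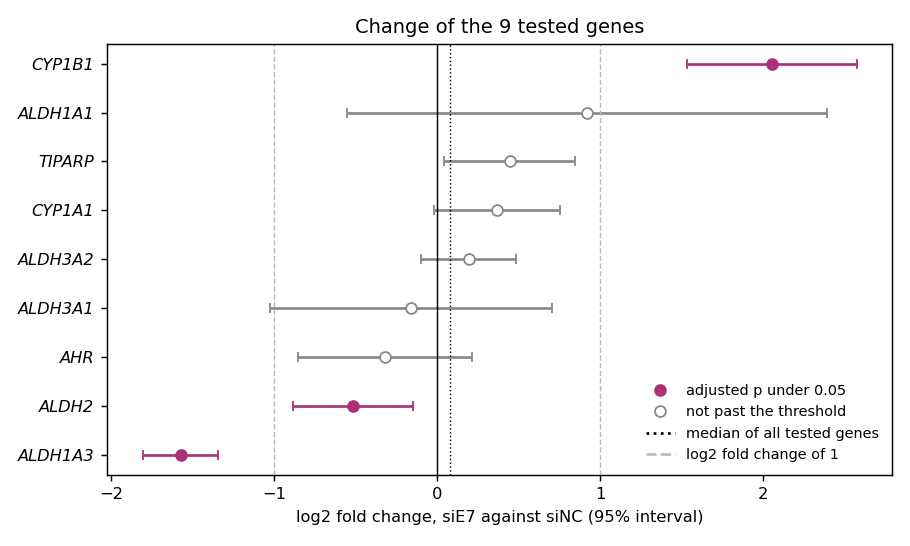
Log2 fold change of siE7 against siNC for the 9 tested genes (x axis), with 95% intervals from edgeR's quasi-likelihood fit. Filled points passed an adjusted p under 0.05, the dotted line is the median of all tested genes at 0.08 and the dashed lines mark a log2 fold change of 1 in either direction; CYP1B1 lies beyond the line on the right and ALDH1A3 beyond the line on the left.

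ALDH1A3 (ENSG00000184254.17, chr15:100877714-100916626, plus strand), which makes retinoic acid in epithelia, was by far the most abundant of the 10 genes and the one with the smallest adjusted p. It had 3964, 4158 and 4403 reads in siNC and 1552, 1573 and 1730 in siE7, with little spread inside either group and a wide gap between them. The mean fell from 165 ± 3.48 to 55.3 ± 2.57 CPM, a log2 fold change of -1.57 (SE 0.106, 95% interval -1.81 to -1.34, adjusted p = 2.86e-06, edgeR). The 15 alternatives gave -1.63 to -1.40, all called, and without replicate 1 of siE7 the value was -1.60. The lncRNA ENSG00000272639 shares exons on the same strand and had 109, 103 and 123 reads in siNC and 43, 31 and 45 in siE7 (log2 fold change -1.70, adjusted p = 0.00024, edgeR). The antisense gene ALDH1A3-AS1 had 121, 67 and 80 reads in siNC and 89, 59 and 127 in siE7 (log2 fold change -0.19, adjusted p = 0.657, edgeR). ALDH1A3 summed with its same-strand overlap gave -1.58.

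ALDH2 (ENSG00000111275.13, chr12:111766887-111817532, plus strand) had 240, 259 and 281 reads in siNC and 235, 169 and 228 in siE7. After scaling, siNC held 9.72, 10.4 and 10.6 CPM and siE7 7.93, 6.12 and 7.46 CPM, so every siE7 library lay below every siNC library. The log2 fold change was -0.51 (SE 0.168, 95% interval -0.88 to -0.15, adjusted p = 0.0346, edgeR). The call was kept in 8 of 15 alternatives. It was lost without composition scaling (-0.35, adjusted p = 0.109), with a block on the replicate number (-0.52, adjusted p = 0.0555) and without any 1 of 5 libraries, with adjusted p of 0.0816, 0.111 and 0.122 without siNC replicates 1, 2 and 3, 0.136 without siE7 replicate 2 and 0.0701 without siE7 replicate 3. Without siE7 replicate 1 it was -0.65 (adjusted p = 0.000173). The unnamed protein-coding gene ENSG00000257767 shares exons with ALDH2 on the same strand and had 200, 218 and 219 reads in siNC and 175, 132 and 143 in siE7 (log2 fold change -0.71, adjusted p = 0.00945, edgeR). Taken as a sum, they gave -0.60 (adjusted p = 0.00915, edgeR).

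ALDH3A2 (ENSG00000072210.19, chr17:19648136-19685760, plus strand) held 35.8, 35.2 and 34.2 CPM in siNC and 33.6, 42.9 and 44.1 CPM in siE7. As for TIPARP, siE7 replicates 2 and 3 lay above the siNC range, but replicate 1 here lay just below it. The log2 fold change was 0.20 (SE 0.133, adjusted p = 0.281, edgeR). It was 0.25 without siE7 replicate 1 (adjusted p = 0.0053), where 58.4% of all tested genes were called. Its neighbour ALDH3A1 (ENSG00000108602.18, chr17:19737984-19748943, minus strand) had 26, 15 and 15 reads in siNC and 22, 19 and 17 in siE7, and the groups overlapped. Its log2 fold change of -0.16 (SE 0.395, 95% interval -1.02 to 0.71, adjusted p = 0.782, edgeR) had no stable sign: it was 0.0027 without composition scaling and 0.17 without siNC replicate 1.

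ALDH1A1 (ENSG00000165092.13, chr9:72900671-73080442, minus strand), the other retinaldehyde dehydrogenase among the 10, was counted with 0, 21 and 19 reads in siNC and with 24, 33 and 30 in siE7. The groups overlapped in CPM, and siNC replicate 1 stood apart at 0. The log2 fold change was 0.92 (SE 0.671, 95% interval -0.55 to 2.39, adjusted p = 0.313, edgeR), and 0.34 without that library. Across the table, ALDH1A1 and ALB, the albumin gene, were the 2 genes with 0 reads in siNC replicate 1 and at least 15 reads in each other library, and no other library had such a gene. That count depends on the limit of 15 reads, and other limits were not tried. APOA2, with 0, 19 and 11 reads in siNC and 18, 31 and 35 in siE7, missed it. ALB had 29 and 39 reads in the other siNC libraries and 28, 43 and 39 in siE7. Of a list of 22 hepatocyte markers added after this was seen, 20 were in the table. Leaving out SERPINA1 and CPS1, which had over 100 reads in siNC replicate 1, and counting absent genes as 0, the summed reads were 10, 97 and 86 in siNC and 97, 130 and 130 in siE7. That sum includes ALB, which prompted the list, and the exclusion was set by siNC replicate 1, so nothing is concluded from it. With SERPINA1 and CPS1 kept, the markers summed to 53.02, 60.85 and 57.41 CPM in siNC and 25.71, 24.96 and 23.94 in siE7. That lower sum in siE7 followed SERPINA1, which had 1060, 1212 and 1226 reads in siNC and 462, 301 and 313 in siE7. CPS1 had 239, 211 and 204 reads in siNC and 203, 258 and 289 in siE7, so the sum does not describe the markers as a set. The part of these transcripts in the ALDH1A1 values was not tested.

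Levels can be compared between genes only per length, and for this the CPM were divided by the length of the canonical transcript (RPKM, n = 3). In siNC the order was ALDH1A3 (47.4 ± 1.00 RPKM), ALDH3A2 (9.47 ± 0.231), TIPARP (5.18 ± 0.511), CYP1A1 (3.77 ± 0.523), ALDH2 (1.07 ± 0.0494), AHR (0.904 ± 0.0614), CYP1B1 (0.569 ± 0.147), ALDH3A1 (0.452 ± 0.165), ALDH1A1 (0.248 ± 0.217) and AHRR (0.0024 ± 0.0041). CYP1B1, ALDH3A1 and ALDH1A1 followed each other by less than their spread. In siE7 CYP1B1, at 2.36 ± 0.540 RPKM, moved from place 7 to place 5, above ALDH2 and AHR. The place of ALDH2 is uncertain: its canonical transcript has 9561 bases, and reads on exons shared with ENSG00000257767 may have gone to either gene. ALDH1A3 kept the first place at 15.9 ± 0.739 RPKM.

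Over the 19 aldehyde dehydrogenase genes of the table, the summed level was 137, 139 and 141 RPKM in siNC and 109, 104 and 104 RPKM in siE7. ALDH1A3 made up 33.7, 34.5 and 34.2% of that sum in siNC and 13.8, 15.8 and 15.7% in siE7, so it was the first gene in siNC and no longer so in siE7. ALDH7A1, which acts in lysine breakdown, took 17.9 ± 0.525% in siNC and 28.0 ± 1.42% in siE7. ALDH7A1 itself had a log2 fold change of 0.25 (adjusted p = 0.0821, edgeR), which did not pass the threshold. It passed without siE7 replicate 1 (0.19, adjusted p = 0.00574), where 58.4% of all tested genes were called. It also passed without composition scaling (0.42, adjusted p = 0.00499), where 38.6% were called. ALDH7A1 was named after its values were seen. Among the retinaldehyde dehydrogenases ALDH1A1 made up at most 0.548% of the sum in any library.

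**Figure D3:**
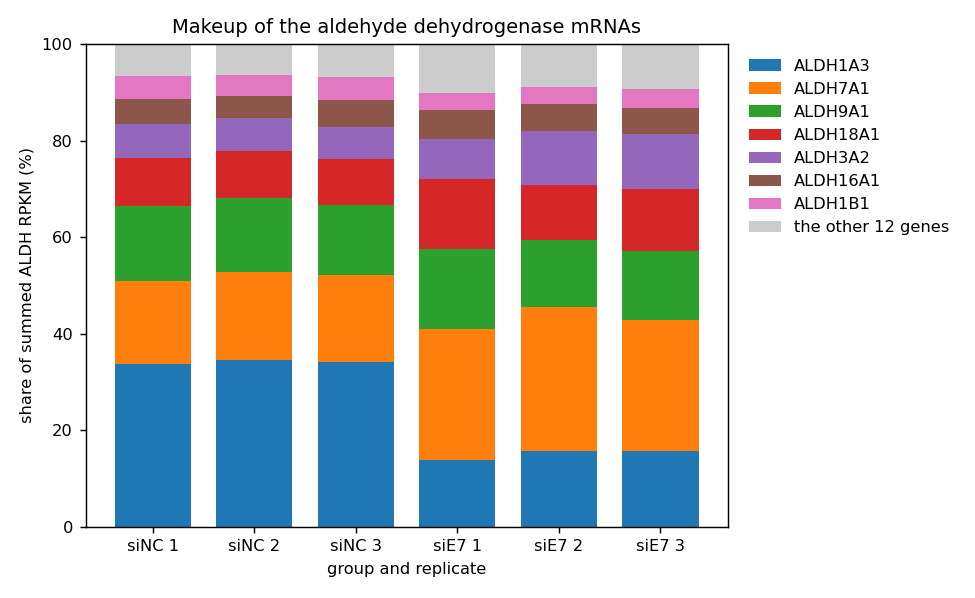
Share of each aldehyde dehydrogenase gene in the summed RPKM of all 19 (y axis, %), one bar per library, with the 7 most abundant genes in colour and the other 12 in grey. The ALDH1A3 share (lowest block) is 33.7 to 34.5% in the siNC bars and 13.8 to 15.8% in the siE7 bars.

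Of 14 other aldehyde dehydrogenase genes, 11 were tested, 1 was called higher and 3 lower, with a median log2 fold change of 0.08. The 4 calls among 11 genes stand beside 34.0% of all tested genes. ALDH1L2, a mitochondrial enzyme of folate metabolism, rose from 1.26 ± 0.296 to 2.63 ± 0.907 CPM (log2 fold change 1.06, adjusted p = 0.027, edgeR). ALDH1B1, a mitochondrial relative of ALDH2, fell from 19.5 ± 1.09 to 11.6 ± 0.454 CPM (log2 fold change -0.75, adjusted p = 0.0019, edgeR), and it was called in all 15 alternatives. ALDH9A1 and ALDH4A1, which act on aminobutyraldehyde and in proline breakdown, fell by 0.40 and 0.81 on the log2 scale (adjusted p = 0.029 and 0.0381, edgeR). Without siE7 replicate 1 ALDH4A1 fell by 1.24 (adjusted p = 7.4e-06), since that library held 4.05 CPM and the other siE7 libraries 2.10 and 2.22. The calls of ALDH9A1 and ALDH4A1 were each kept in 9 of 15 alternatives, and that of ALDH1L2 in 10.

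A list of 5 genes for the HSP90 complex and the nuclear partners of AHR was tested in full. By edgeR 0 were called, beside 34.0% of all tested genes, and so short a list says little. At an unadjusted p under 0.05 there was 1, HSP90AB1, and it was also the 1 gene of the complex that DESeq2 and limma-voom called. HSP90AB1, an HSP90 chaperone, was below siNC in every siE7 library, at 6640, 6741 and 6529 CPM against 5801, 5412 and 5318 CPM (log2 fold change -0.27, adjusted p = 0.0544, edgeR). Without siE7 replicate 1 it was called, at -0.37 (adjusted p = 9.59e-07), in a comparison that called 58.4% of all tested genes. ARNT, the partner of AHR in the nucleus, was at 41.5 ± 3.64 CPM in siNC and 39.8 ± 2.96 in siE7 (log2 fold change -0.06, 95% interval -0.33 to 0.21, adjusted p = 0.731, edgeR). Of the 15 alternatives 1 called ARNT, the one without siE7 replicate 1 (-0.18, adjusted p = 0.0488), and without composition scaling its sign turned (0.10, adjusted p = 0.467). HSP90AA1 was at 824, 855 and 794 CPM in siNC and at 333, 910 and 953 in siE7, so siE7 replicate 1 held 0.358 of the mean of the other siE7 libraries. The log2 fold change was -0.17 (adjusted p = 0.672, edgeR) with that library and 0.11 without it (adjusted p = 0.0789). HSP90AA1 and HSP90AB1 were named after their values were seen.

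Of 14 other AHR target genes, 11 were tested, and 1 was called higher and 4 lower, where 18.0% of all tested genes were called higher and 16.0% lower. STC2, a secreted glycoprotein, rose from 51.0 ± 6.04 to 135 ± 12.3 CPM (log2 fold change 1.41, adjusted p = 1.76e-05, edgeR). IL1B, a cytokine, fell from 74.7 ± 4.89 to 17.0 ± 1.32 CPM (log2 fold change -2.14, adjusted p = 9.37e-07, edgeR), and ABCG2, an efflux pump for drugs, fell from 2.65 ± 0.363 to 0.576 ± 0.181 CPM (log2 fold change -2.18, adjusted p = 0.000376, edgeR). These 3 calls held in all 15 alternatives. NQO1, a quinone reductase that NRF2 also induces, fell by 0.34 on the log2 scale (adjusted p = 0.0255, edgeR) and was called in 8 of 15 alternatives, and SERPINB2, named after its value was seen, fell by 0.55 (adjusted p = 0.0379, edgeR) and was called in 11. The median of the list was 0.13, beside 0.08 over all tested genes.

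Of the kynurenine enzymes, which turn tryptophan into ligands of AHR and break these down, 9 of 11 were in the table and 6 were tested, of which 2 were called, beside 34.0% of all tested genes. KYNU, which cleaves kynurenine, held 28.7, 27.5 and 32.7 CPM in siNC and 35.6, 62.7 and 66.8 in siE7 and rose (log2 fold change 0.89, adjusted p = 0.00629, edgeR), in all 15 alternatives. IL4I1, an amino acid oxidase that yields AHR agonists, fell by 0.47 on the log2 scale (adjusted p = 0.0282, edgeR) and was called in 8 of 15. Of 19 retinoid genes, 17 were in the table and 11 were tested, with 2 called higher and 1 lower, beside 34.0% of all tested genes called. Their median log2 fold change was 0.32, against 0.08 over all tested genes. CRABP2, a carrier of retinoic acid in the cell, fell from 145 ± 15.5 to 70.7 ± 8.24 CPM (log2 fold change -1.03, adjusted p = 0.000149, edgeR), and it was called in all 15 alternatives. RXRB, a retinoid X receptor, and RDH11, a retinal reductase, rose by 0.74 and 0.55 (adjusted p = 0.00342 and 0.025, edgeR), the latter in 10 of 15 alternatives.

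**Figure D4:**
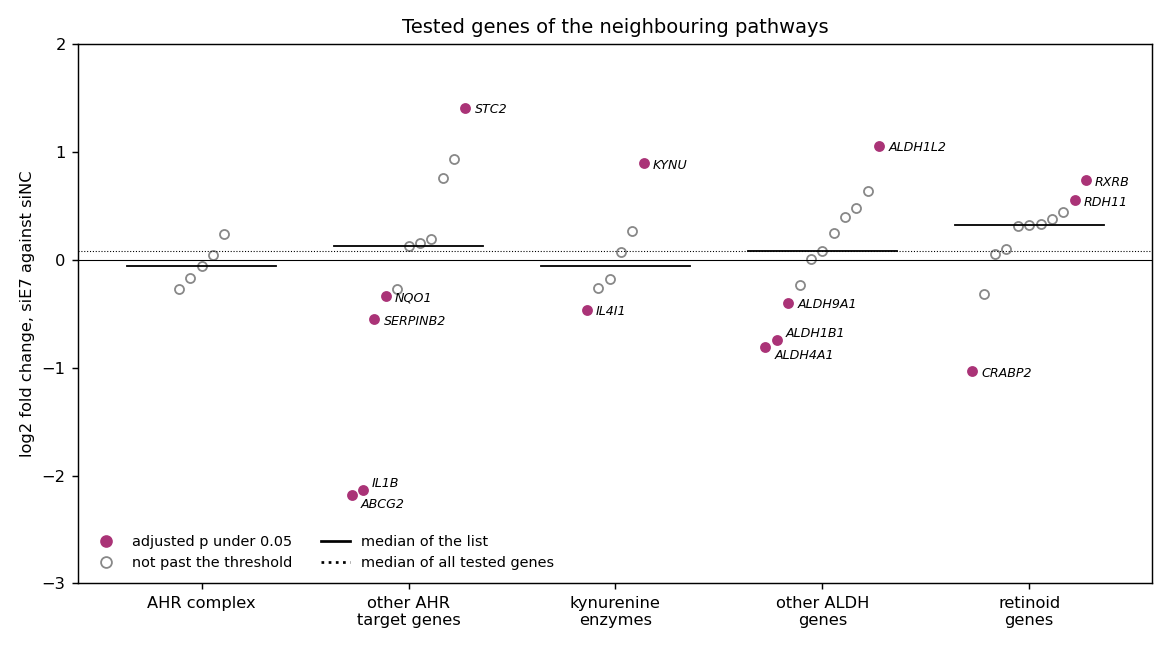
Log2 fold change of siE7 against siNC (y axis) for every tested gene of 5 lists (x axis), with genes sorted within each list. Filled points passed an adjusted p under 0.05 and are named, a short line marks each list's median and the dotted line the median of all tested genes at 0.08; IL1B and ABCG2 lie lowest and STC2 highest.

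The genes whose log2 CPM most resembled AHR over the 6 libraries were BBX (Pearson r = 0.995), MBNL1 (0.994), TNPO1 (0.994), DSE (0.993) and PARP14 (0.990), out of 14660 genes compared. All 5 had their lowest count in siE7 replicate 1, as AHR did, but they were chosen by their likeness to AHR, so this follows from the choice. In all, 550 genes had r over 0.9. The 6 points share the libraries and are not independent for each gene.

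**Figure D5:**
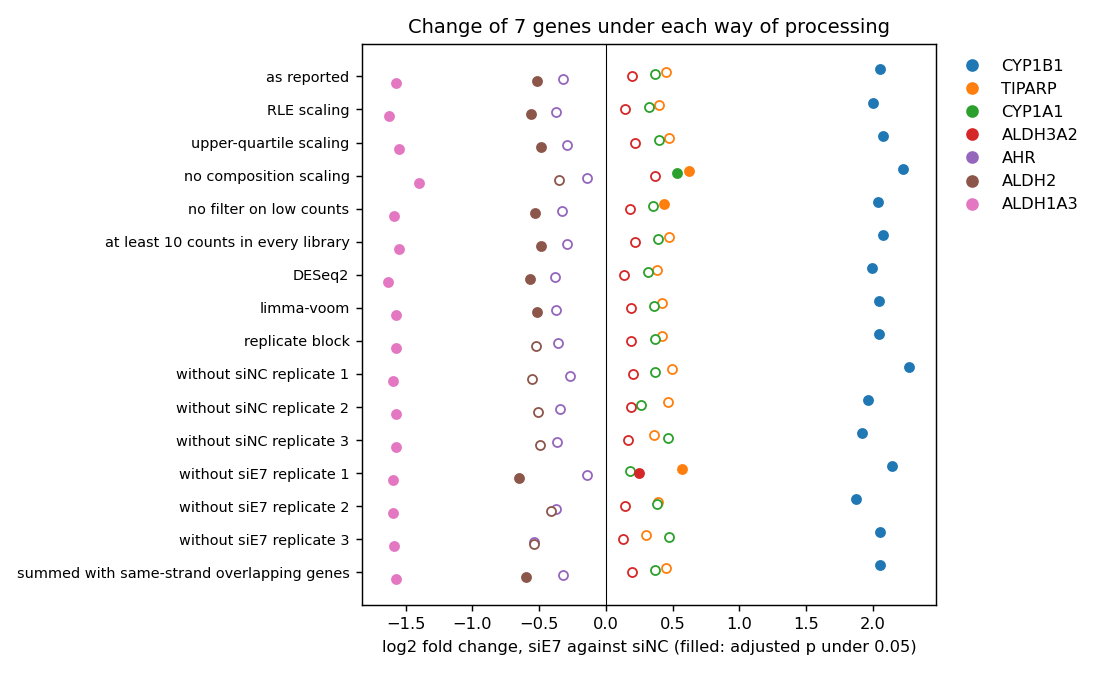
Log2 fold change of 7 genes (x axis, colours) under the reported processing and each of 15 alternatives (y axis), with filled points where the adjusted p is under 0.05. CYP1B1 stays between 1.88 and 2.28 and ALDH1A3 between -1.63 and -1.40, filled throughout, whereas ALDH2, TIPARP, CYP1A1 and ALDH3A2 change between filled and open.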

How the data were processed

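The authors deposited raw read counts per gene, whole numbers without normalization, for 6 libraries of polyadenylated RNA made with a stranded kit and sequenced on an Illumina NovaSeq. The submitters' processing notes name HISAT2, DESeq2 and GRCh38. The counting tool, the annotation release and the use of strand are not given in the sources used here. Samples were grouped by their titles, and 0 columns of per-sample values were left unused.

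Counts were filtered with filterByExpr, which kept 14661 of 25349 genes, scaled by TMM and tested by edgeR 4.0.16 (R 4.3.3, quasi-likelihood with robust dispersions, Benjamini-Hochberg adjustment). An adjusted p under 0.05 was a call. With 3 libraries per group an exact permutation test cannot give a p under 0.1, so none is given. The alternatives were DESeq2 1.42.0, limma-voom (limma 3.58.1), scaling by RLE, by upper quartiles or not at all, no filter, at least 10 counts in every library, a replicate block and each library left out. Summing genes with same-strand overlaps was added after the data were seen. On simulated data edgeR recovered 100 of 100 genes changed by 2 on the log2 scale and 84 of 100 changed by 1, with 13 false calls among 14638 genes. The simulation changed 200 genes, none of them low in reads, and no library in it stood apart as siE7 replicate 1 does. Its figures therefore do not describe genes with few reads or the effect of that library. Positions and lengths come from GENCODE v44, in which 25283 identifiers were matched.

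Named genes were all 10 genes, MKI67, ARNT, NQO1, from each list the up to 4 called genes with the smallest p, and the 5 genes most like AHR; others are said to be named after their values were seen, and the 7 squamous, 5 fibroblast, 4 leukocyte and 3 endothelial markers served to check the cells. Of the lists, 2 genes are not reported here. The genes and lists were chosen with earlier results of these data known. The labels do not say whether replicate numbers pair the samples, and the main test did not pair them. Tables were built with Python 3.11.15 and pandas 2.3.3.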

Additional observations from a re-analysis of the deposited data

How the results depend on the processing

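MKI67 stayed between -3.27 and -3.04, CYP1B1 between 1.88 and 2.28 and ALDH1A3 between -1.63 and -1.40 under all 15 alternatives, and these 3 kept their calls. Without composition scaling the median log2 fold change of tested genes rose by 0.169 and 4030 genes instead of 2639 were called higher. The 10 genes then had 3 calls higher (CYP1A1 at 0.53 and TIPARP at 0.63 were added) and 1 lower, and ALDH3A1 reversed to 0.0027. The lists under that scaling gave 2 other AHR targets higher and 2 lower, 0 kynurenine enzymes lower, 2 other ALDH genes higher and 1 lower, and 6 retinoid genes higher. Under it 38.6% of all tested genes were called in either direction. Without a filter the 10 genes had 2 calls higher, since TIPARP passed (0.43, adjusted p = 0.0385). RLE scaling, DESeq2 and limma-voom each called 1 gene of the AHR complex lower, and limma-voom called 0 other ALDH genes higher.

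Leaving out 1 library at a time gave ranges of 1 to 3 calls higher and 1 to 2 lower for the 10 genes, and 1598 to 4343 higher and 1552 to 4422 lower for all genes, with the highest of each without siE7 replicate 1. It gave 0 to 2 for the AHR complex lower, 1 to 3 higher and 2 to 5 lower for the other AHR targets, 0 to 2 for kynurenine enzymes lower, 0 to 2 higher and 1 to 4 lower for other ALDH genes, and 1 to 3 higher and 1 to 2 lower for retinoid genes. ALDH3A1 ranged from -0.33 to 0.17. The cause of these changes was not tested. With a replicate block 1 of the 10 genes was called lower, since ALDH2 lost its call (-0.52, adjusted p = 0.0555), and 0 kynurenine enzymes were called lower. Same-numbered libraries correlated at -0.0393, -0.0205 and -0.0521 in their deviations from the group means, and the numbers were not taken to pair them. With 3 libraries per group these values cannot exclude a pairing. Genes with few reads (AHRR, ALDH1A1, ALDH3A1) have wide intervals.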
